A study of Mus musculus with 12 samples.

Results

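The collagen, laminin and integrin genes measured in cultured mouse aortic endothelial cells are described here in cells that lack Ets1, Ets2 or both of these transcription factors of the ETS family. Members were taken by symbol: every Affymetrix probe set annotated to exactly 1 gene named as a collagen chain, a laminin chain or an integrin alpha or beta subunit. Matching by name gave 45 genes with 80 probe sets, out of 11015 genes and 20523 probe sets in all. They comprise 25 collagens (41 probe sets), 6 laminins (11) and 14 integrins (28), and 25 of the 45 genes have more than 1 probe set. No probe set was removed for a low value. Another 3 symbols that start like an integrin name but encode no subunit (Itgb1bp1, Itgb3bp and Itgbl1) were left out.

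Collagens are triple-helical proteins, of which the fibrillar types give connective tissue its tensile strength and types IV, XV and XVIII belong to basement membranes. Laminins are trimers of an alpha, a beta and a gamma chain that form the sheet of the vascular basement membrane, and integrins are alpha-beta receptors through which endothelial cells hold on to these proteins and to fibronectin. ETS factors bind DNA at a GGAA core and are known as activators of endothelial genes.

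All cells came from aortas of 4-week-old mice and were grown in a medium with serum and endothelial growth supplement. The group labelled DKO is Ets1-/-; Ets2fl/fl with a lentivirus that carries egfp and Cre, and Ets2KO is Ets1+/+; Ets2fl/fl with that same virus. Ets1KO is Ets1-/-; Ets2fl/fl with a lentivirus that carries egfp alone, and WT is Ets1+/+; Ets2+/+ with the egfp virus. The effect of Cre cannot be told apart from that of Ets2 loss, nor can the floxed Ets2 alleles of Ets1KO from its loss of Ets1. The titles and genotypes name the Ets1KO and Ets2KO groups as null where the short sample descriptions call them wild type, and titles and genotypes were followed. Titles number 3 biological replicates a group, and nothing else says that these came from separate animals, so p-values measure the spread between these arrays.

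Values are log2 intensities. The third of the 3 DKO columns equals the mean of the other 2 within 1e-05 in 20521 of 20523 probe sets and was left out, so 11 arrays were analysed, 2 of them labelled DKO. Array medians were 8.29 and 8.30 in the DKO-labelled arrays and 9.05 to 9.15 in the 9 others, so each level below is given relative to its array's median (log2 value minus that median) and differences are also given as deposited. Among all probe sets the median difference of DKO from WT was 0.16 relative to array medians and -0.63 as deposited. Ets1 and Ets2 transcripts go against the DKO label: relative to array medians 3 of 4 Ets1 probe sets and both for Ets2 had their highest group mean there. As deposited only the Ets1 probe set 1452163_at did, at 10.2 in DKO and 10.1 in WT, while the same 3 Ets1 probe sets had higher means in DKO than in Ets1KO on both scales. The brightest of 4 Ets1 probe sets, 1452163_at, had relative levels of 1.72 and 1.99 in the DKO-labelled arrays, 0.43, 0.49 and 0.80 in Ets2KO, -0.82, -0.38 and 0.02 in Ets1KO, and 1.21, 0.72 and 0.95 in WT. The probe sets 1426725_s_at and 1422028_a_at also had their highest mean in DKO relative to array medians, the second with overlap of WT. The mean of 1422027_a_at was lowest in DKO, where 1 Ets1KO array lay below a DKO-labelled one, with levels of -1.81 and -1.24 in DKO, -0.79, -0.73 and -1.0 in Ets2KO, -1.41 to -0.58 in Ets1KO and -0.35 to -0.29 in WT. The brighter Ets2 probe set read 2.72 and 1.34 in DKO, 0.29 to 1.05 in Ets2KO, 1.15 to 1.39 in Ets1KO and 0.68 to 1.59 in WT, and the dimmer averaged -0.60 in DKO, -1.35 in Ets2KO, -1.25 in Ets1KO and -1.19 in WT. The place of these probe sets against the parts removed was not analysed here. Directions drawn from DKO therefore refer to the arrays so labelled. By Xist and Eif2s3y, transcripts of the X and Y chromosomes, 0 of the 2 DKO-labelled arrays, all 3 Ets2KO arrays, 0 of the 3 Ets1KO arrays and 1 of the 3 WT arrays are male-like. Of 12 endothelial markers 3 have a probe set here (Flt1, Kdr and Egfl7), with list means per array of -1.62 to -0.79 in DKO, -1.82 to -1.26 in Ets2KO, -1.93 to -1.57 in Ets1KO and -1.62 to -1.44 in WT, below the array median in every group. The other 9, Pecam1 and Cdh5 among them, were not analysed here.

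Loss of either factor alone moved no member past the test. In the DKO-labelled arrays the share of members called was below that of all probe sets against WT and against Ets1KO, and near it against Ets2KO. A probe set is called where its limma p, adjusted by Benjamini-Hochberg over all 20523 probe sets, lies below 0.05. In Ets1KO against WT 0 of 80 member probe sets were called, where 0.00487% of all probe sets were, and 4 members had an unadjusted p below 0.05 (9.03% of all probe sets did). In Ets2KO against WT it was again 0 of 80, where 0.633% of all were called (0.336% higher and 0.297% lower), with 6 at an unadjusted p below 0.05 (20.6% of all). In DKO against WT 6 member probe sets were called higher and 5 lower (13.8%), where 36% of all probe sets were called (21.6% higher and 14.4% lower). DKO against Ets1KO gave 6 higher and 7 lower (16.2%), against 35.4% of all (21.8% higher and 13.7% lower). DKO against Ets2KO gave 16 higher and 9 lower (31.2%), against 35.2% of all (20.2% higher and 14.9% lower).

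**Figure D1:**
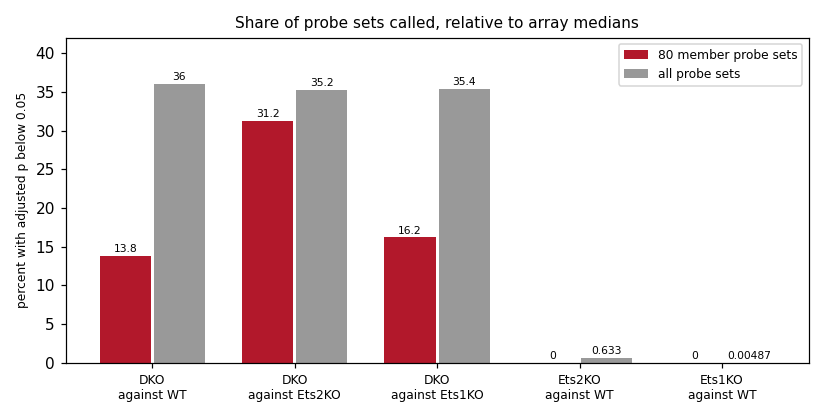
Percent of probe sets with an adjusted p below 0.05 (y axis) in 5 comparisons (x axis), for the 80 member probe sets (red) and for all 20523 (grey), relative to array medians. The red bars are 13.8%, 31.2% and 16.2% in the DKO comparisons, each below its grey bar, and 0 in the single losses.

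Members were more variable between arrays than the average probe set. The median SE of a difference from WT was 0.60 for members and 0.25 for all probe sets in DKO, and 0.54 and 0.22 in Ets2KO and in Ets1KO. Their median absolute difference was larger too, at 0.86 in DKO, 0.36 in Ets2KO and 0.39 in Ets1KO, against 0.56, 0.27 and 0.19 for all probe sets. Absolute differences grow with the spread between arrays, so these values do not show that members responded more. The share of members whose groups did not overlap was 30% in DKO against WT (56.4% of all probe sets), 52.5% against Ets1KO (62.5% of all) and 50% against Ets2KO (58.4% of all). It was 10% against WT in both Ets2KO (28.3% of all) and Ets1KO (18.7% of all).

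Which direction the members took in DKO depends on the scaling. As deposited 0 member probe sets were called higher than WT and 21 lower, where 48.8% of all probe sets were called, 2.87% higher and 46% lower. Against Ets1KO it was 1 higher and 20 lower (47.8% of all, 1.76% higher), and against Ets2KO 4 higher and 22 lower (48.8% of all, 3.12% higher and 45.7% lower). In Ets2KO and in Ets1KO against WT it stayed at 0 members, where 0.58% (0.292% higher, 0.287% lower) and 0.00487% of all were called. Called on both scales in the same direction were 5 member probe sets against WT, 8 against Ets1KO and 13 against Ets2KO, and none was called in opposite directions by the 2 scales. Single arrays also set the counts. A fit without DKO replicate 1 or without DKO replicate 2 rests on the other DKO-labelled array alone, with the spread taken from the other groups. Against WT 18 were called without WT replicate 3. Against Ets1KO 5 were called without Ets1KO replicate 2 and 6 without Ets1KO replicate 3. Against Ets2KO 12 were called without DKO replicate 1 or without DKO replicate 2, and 13 without Ets2KO replicate 1 or without Ets2KO replicate 2.

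Fibrillar collagens, which make up the fibres of the vessel wall, had their highest group mean in the DKO-labelled arrays and their lowest in Ets2KO at both probe sets each of Col1a1, Col3a1 and Col5a2. Of 18 probe sets of 9 genes, 8 were higher in DKO than in Ets2KO and 0 lower (44.4%, against 20.2% of all probe sets called higher), with a median difference of 2.33 against 0.17 for all probe sets. Those 8 belong to Col1a1, Col1a2, Col5a2 and Col5a3. As deposited the median was 1.56 and 2 of the 8, both of Col1a1, remained called higher, where 3.12% of all probe sets were. Another 2 of the 18 were called lower on that scale, against 45.7% of all. Against WT 1 of 18 was higher in DKO (5.56%, against 21.6% of all called higher), with a median of 1.35. In Ets2KO 0 were called (0.633% of all). There 13 of 18 were below 0, where 10079 of all 20523 were, with a median of -0.79.

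Col1a1 encodes the alpha-1 chain of type I collagen, the main fibre of the adventitia. Its probe set 1423669_at had relative levels of 5.02 and 4.36 in DKO, 1.33, 0.11 and 2.14 in Ets2KO, 4.06, 3.43 and 3.28 in Ets1KO, and 2.98, 4.22 and 2.82 in WT. The DKO-labelled arrays lay above all others and the Ets2KO arrays below all others. DKO minus Ets2KO was 3.49 (SE 0.60, limma adjusted p = 0.00256), and 2.72 as deposited (adjusted p = 0.00516). Every fit that left out 1 array kept that call. Ets2KO minus WT was -2.14 (SE 0.54, adjusted p = 0.0869), which did not pass, and DKO minus WT was 1.35 (adjusted p = 0.108). The second Col1a1 probe set gave 3.48 against Ets2KO (SE 0.83, adjusted p = 0.0114), but 2.56 without DKO replicate 1, where the call was lost.

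Col1a2, the partner chain of type I collagen, was called in DKO against Ets2KO at all 3 of its probe sets. The brightest, 1450857_a_at, had relative levels of 6.08 and 5.78 in DKO, 4.06, 2.55 and 4.16 in Ets2KO, 5.31, 5.02 and 4.99 in Ets1KO, and 4.08, 5.29 and 3.19 in WT. No DKO-labelled array overlapped another group, and the 3 differences from Ets2KO were 2.33, 2.75 and 3.02 (adjusted p = 0.0165, 0.0209 and 0.0347). As deposited they were 1.56, 1.98 and 2.25 and none passed (adjusted p = 0.0603, 0.0591 and 0.0775). Each of the 3 calls was also lost without DKO replicate 1, and with sex as a covariate the differences were 2.17, 1.03 and 2.84, none of them called. The dimmest probe set, 1446326_at, was also higher than WT in DKO, by 2.86 (SE 0.76, adjusted p = 0.0175; 2.07 as deposited, adjusted p = 0.0508), and its levels were 1.60 and 0.32 in DKO against -3.05, -0.45 and -2.21 in WT. Without DKO replicate 1 that difference was 2.22 (adjusted p = 0.114). In Ets1KO it differed from WT by 1.97 (adjusted p = 0.466).

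Col5a2, a type V chain that regulates fibril diameter, differed between the DKO-labelled arrays themselves. At 1422437_at the relative levels were 5.54 and 2.80 in DKO, 0.94, 1.03 and 1.50 in Ets2KO, 2.91, 2.14 and 2.09 in Ets1KO, and 3.32, 3.72 and 1.25 in WT. DKO replicate 1 stood far above replicate 2. The difference from Ets2KO was 3.01 (SE 0.85, adjusted p = 0.0233), and 1.64 without DKO replicate 1, where it was not called. The second Col5a2 probe set gave 3.19 (adjusted p = 0.0367), and 1.51 without DKO replicate 1. These 2 calls were kept in 8 and 5 of 11 fits that left out an array. Col5a3, another type V chain, had levels of -1.22 and -1.06 in DKO, -2.00, -2.30 and -2.02 in Ets2KO, -1.69, -0.89 and -1.28 in Ets1KO, and -1.10, -1.19 and -0.59 in WT. The Ets2KO arrays were the lowest, with a difference from WT of -1.15 (SE 0.23, adjusted p = 0.0597) that did not pass, while DKO minus Ets2KO was 0.97 (SE 0.26, adjusted p = 0.0179; 0.20 as deposited, adjusted p = 0.57).

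The remaining fibrillar genes passed no test relative to array medians. Col3a1, which forms reticular fibres, ranged from 4.53 to 5.43 in DKO at its brighter probe set, from 1.80 to 4.94 in Ets2KO, from 2.81 to 3.81 in Ets1KO and from 3.61 to 4.37 in WT. Col11a1, a minor fibril chain known from cartilage, varied most among arrays of 1 group: its brighter probe set read 3.01 and -0.15 in DKO, and 1.80 in WT replicate 2 where the other WT arrays read -2.17 and -3.47. Its DKO minus WT difference of 2.72 was not called. Of the 3 Col5a1 probe sets, 1 was lower in DKO than in WT by 1.26 (adjusted p = 0.146) and the others were higher by 0.75 and 0.80. Col2a1 of cartilage read -0.92 and 1.15 in DKO, 1.66 to 3.64 in Ets2KO, -1.93 to 1.55 in Ets1KO and 0.63 to 1.34 in WT. Both Col27a1 probe sets lay below the array median in all arrays but WT replicate 3, where they read 0.05 and 0.01.

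Markers of other cells of the vessel wall differed between the groups too. The 4 measured smooth muscle markers of 6 listed had array means of 0.13 to 1.74 in DKO, -0.69 to 0.20 in Ets2KO, -0.28 to 1.31 in Ets1KO and 0.07 to 1.24 in WT. These genes differed in direction: Acta2 read 5.75 and 2.21 in DKO and 0.04 to 0.29 in Ets2KO, Tagln 2.74 and -1.90 in DKO and -1.52 to 0.51 in Ets2KO, Smtn 0.32 and 2.10 in DKO and 0.87 to 1.70 in Ets2KO, and Des lay between -2.15 and -1.70 in all arrays. The 5 measured fibroblast markers of 7 averaged highest in Ets2KO, with -0.15 to 0.35 in DKO, 0.55 to 1.09 in Ets2KO, -0.92 to -0.07 in Ets1KO and -0.02 to 0.63 in WT. They too differed in direction. Dcn read 1.14 and -1.12 in DKO and -2.01 to -1.32 in Ets2KO, and Lum -2.03 and -2.54 in DKO and -3.68 to -2.14 in Ets2KO. Dpt read -2.10 and -2.87 in DKO and 0.80 to 2.13 in Ets2KO. Pdgfra averaged higher in Ets2KO at each probe set, and Pdgfrb took both directions. The part of these markers in the collagen differences is taken up next. That part was not tested, and in bulk RNA fewer cells of a type cannot be told apart from less RNA per cell. Sex also differs between DKO and Ets2KO in all arrays. With sex as a covariate, estimated from the WT arrays alone, 2 of the 25 member calls of DKO against Ets2KO were kept, neither of them a collagen, and the Col1a1 difference was 2.95 (SE 1.03, adjusted p = 0.134).

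**Figure D2:**
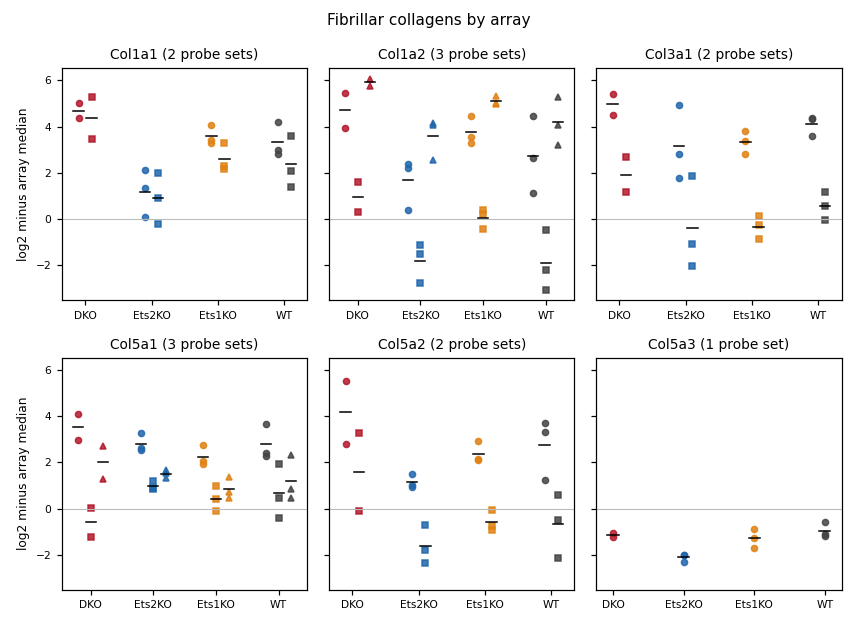
Log2 level minus array median (y axis) of 6 fibrillar collagens in DKO, Ets2KO, Ets1KO and WT (x axis); each point is an array, each marker shape a probe set and each black bar a group mean. At Col1a1 the DKO points lie highest and the Ets2KO points lowest.

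Basement membrane collagens form the network under the endothelium. Of their 10 probe sets, 3 were called higher and 0 lower in DKO against WT (30%, against 36% of all probe sets). It was 3 higher and 0 lower against Ets1KO (30%, against 35.4%), and 3 higher and 2 lower against Ets2KO (50%, against 35.2%). The higher calls belong to Col4a1, Col4a5 and Col4a6 and the lower ones to Col18a1. As deposited 0 of the 10 were called in DKO against WT, where 48.8% of all were.

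The type IV genes lie in pairs that are transcribed away from each other. On chromosome 8 Col4a1 starts on the minus strand and Col4a2 on the plus strand, with starts 21 bases apart so that their first bases overlap, and on chromosome X Col4a6 and Col4a5 start 1343 bases apart in the same arrangement. The windows from 250 bases before to 50 after each start (RefSeq, GRCm38.p6) are shown for these pairs because their members were measured together, and for both starts of Col18a1 because both of its probe sets were called. Capitals mark GGAA and its reverse complement TTCC.
Col4a1, chr8:11312777-11313076, minus strand: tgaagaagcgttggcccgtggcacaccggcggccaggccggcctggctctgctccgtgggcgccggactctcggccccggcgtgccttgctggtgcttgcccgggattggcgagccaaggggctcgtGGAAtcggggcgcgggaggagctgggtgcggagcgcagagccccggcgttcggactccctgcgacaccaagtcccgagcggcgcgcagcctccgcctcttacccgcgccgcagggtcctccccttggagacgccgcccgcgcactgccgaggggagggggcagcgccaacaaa
Col4a2, chr8:11312555-11312854, plus strand: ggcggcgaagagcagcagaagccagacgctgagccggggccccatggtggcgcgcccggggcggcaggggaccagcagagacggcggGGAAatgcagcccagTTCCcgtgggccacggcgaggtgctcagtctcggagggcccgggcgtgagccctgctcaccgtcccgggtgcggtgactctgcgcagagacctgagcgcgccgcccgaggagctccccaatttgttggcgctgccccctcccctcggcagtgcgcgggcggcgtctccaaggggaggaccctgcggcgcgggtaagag
Col4a6, chrX:141474027-141474326, minus strand: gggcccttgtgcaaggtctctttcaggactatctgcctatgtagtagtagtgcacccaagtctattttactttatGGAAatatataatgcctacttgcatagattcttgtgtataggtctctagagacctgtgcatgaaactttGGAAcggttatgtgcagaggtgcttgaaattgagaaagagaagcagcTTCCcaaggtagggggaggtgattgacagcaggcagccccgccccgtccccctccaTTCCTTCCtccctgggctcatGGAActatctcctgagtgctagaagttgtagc
Col4a5, chrX:141475169-141475468, plus strand: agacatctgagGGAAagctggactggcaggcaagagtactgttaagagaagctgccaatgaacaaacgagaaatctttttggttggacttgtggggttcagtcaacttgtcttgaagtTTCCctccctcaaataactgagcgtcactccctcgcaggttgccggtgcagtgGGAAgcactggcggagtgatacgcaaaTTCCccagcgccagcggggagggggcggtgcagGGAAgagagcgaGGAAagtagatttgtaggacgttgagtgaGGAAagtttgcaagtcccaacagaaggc
Col18a1, chr10:77166481-77166780, minus strand: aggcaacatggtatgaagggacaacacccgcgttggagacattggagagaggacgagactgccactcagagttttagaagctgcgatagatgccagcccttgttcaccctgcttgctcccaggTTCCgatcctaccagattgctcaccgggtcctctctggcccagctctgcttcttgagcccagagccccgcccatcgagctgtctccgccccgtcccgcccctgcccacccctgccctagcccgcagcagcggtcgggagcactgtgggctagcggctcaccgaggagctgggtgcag
Col18a1, chr10:77113656-77113955, minus strand: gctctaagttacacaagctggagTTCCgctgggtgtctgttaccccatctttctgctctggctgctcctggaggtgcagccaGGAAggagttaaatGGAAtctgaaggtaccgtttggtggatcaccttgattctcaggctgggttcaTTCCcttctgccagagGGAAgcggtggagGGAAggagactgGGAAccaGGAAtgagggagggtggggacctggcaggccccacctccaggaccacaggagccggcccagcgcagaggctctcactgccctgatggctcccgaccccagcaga
GGAA or TTCC occurs 1 time in the Col4a1 window, 2 times in that of Col4a2, 6 times in that of Col4a6 and 7 times in that of Col4a5, and 1 and 8 times in those of Col18a1. The Col4a1 and Col4a2 windows share 78 bases. Of the 45 members 34 have a window, and 33 of these 34 (97.1%) hold GGAA on either strand, as do 96.5% of all genes with one. The longer CCGGAA, on either strand, was in 2 of the 34 (5.88%; Itga3 and Itgb1) and in 16.7% of all genes. These matches describe letters in a window and no binding.

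Col4a1 and Col4a2, the chains of the common type IV trimer, were lowest in Ets1KO. The brighter Col4a1 probe set had relative levels of 4.08 and 3.13 in DKO, 3.12, 3.78 and 3.56 in Ets2KO, 2.95, 2.28 and 2.07 in Ets1KO, and 3.64, 2.97 and 2.86 in WT. Col4a2 read 3.44 and 2.81 in DKO, 2.47, 3.06 and 3.17 in Ets2KO, 2.75, 1.81 and 1.62 in Ets1KO, and 3.13, 2.52 and 2.26 in WT. DKO exceeded Ets1KO at both Col4a1 probe sets, by 1.17 and 1.41 (adjusted p = 0.0393 and 0.0287), and at Col4a2 by 1.07 (adjusted p = 0.0621). As deposited the Col4a1 differences were 0.33 and 0.56 (adjusted p = 0.496 and 0.291), and without DKO replicate 1 they were 0.70 and 0.89, with neither called. Against WT the 3 probe sets of these genes differed by -0.82 to -0.58 in Ets1KO, with unadjusted p of 0.0571 to 0.137, and no call.

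Col4a5, a chain of the type IV network known from kidney and smooth muscle basement membranes, was higher in DKO than in each of the other groups at 1 of its probe sets. That probe set, the brighter 1425476_at, had relative levels of 3.23 and 3.88 in DKO, 1.36, 1.80 and 2.49 in Ets2KO, 2.92, 1.70 and 1.52 in Ets1KO, and 1.95, 1.25 and 1.69 in WT. No DKO-labelled array overlapped any other. It exceeded WT by 1.93 (SE 0.47, adjusted p = 0.0118), Ets1KO by 1.51 (adjusted p = 0.0324) and Ets2KO by 1.67 (adjusted p = 0.0219). As deposited the differences were 1.13, 0.67 and 0.90, and none passed (adjusted p = 0.0684, 0.263 and 0.135). Without DKO replicate 2 the difference from WT was 1.60 (adjusted p = 0.087), and the call against Ets1KO was lost in 4 of 11 fits, without Ets1KO replicate 2 or 3 or either DKO-labelled array. The difference from Ets2KO was 2.15 with sex as a covariate (adjusted p = 0.153). Its neighbour Col4a6 read 1.78 and 3.22 in DKO at 1421007_at, -1.03, 0.10 and 0.36 in Ets2KO, 2.30, 0.85 and 1.40 in Ets1KO, and 0.87, -0.79 and 0.99 in WT. Only the Ets2KO and WT arrays lay wholly below DKO. It was higher in DKO by 2.14 against WT (adjusted p = 0.0382) and by 2.69 against Ets2KO (SE 0.69, adjusted p = 0.0157; 1.92 as deposited, adjusted p = 0.0433). The call against WT was lost without WT replicate 2, Ets1KO replicate 3, Ets2KO replicate 2 or DKO replicate 2, with differences over all 11 fits of 1.42 to 2.86, and that against Ets2KO without DKO replicate 2 (1.97). The second Col4a6 probe set differed from WT by 0.92 without a call. The second Col4a5 probe set was called against WT (1.50) and Ets2KO (1.43) but not against Ets1KO (1.17, adjusted p = 0.0758). Against WT it was 0.93 without DKO replicate 2 (adjusted p = 0.234), and the call was also lost without WT replicate 2. Both genes are X-linked, and in the comparison with Ets1KO all arrays are female-like.

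Col18a1, whose C-terminal fragment is endostatin, was highest in Ets2KO. At 1418237_s_at its relative levels were 2.30 and 3.22 in DKO, 4.23, 4.46 and 4.86 in Ets2KO, 3.85, 2.97 and 3.03 in Ets1KO, and 3.01, 2.32 and 3.31 in WT. All Ets2KO arrays lay above all others. The second probe set read 2.43 and 3.64 in DKO, 4.28 to 4.63 in Ets2KO, 2.83 to 3.69 in Ets1KO and 2.34 to 3.40 in WT. Ets2KO exceeded WT by 1.63 and 1.50 (SE 0.36 and 0.37), with adjusted p of 0.0681 and 0.0868, so neither passed. DKO was lower than Ets2KO by 1.76 and 1.37 (adjusted p = 0.00921 and 0.031), and as deposited the differences were -2.53 and -2.15 (adjusted p = 0.000753 and 0.00241). Without DKO replicate 1 the first was -1.30 and was not called, and with sex as a covariate it was -1.57 (adjusted p = 0.219). The second was -0.77 without DKO replicate 1 (adjusted p = 0.228), lost its call in 4 of 11 fits that left out an array, and was -1.27 with sex as a covariate (adjusted p = 0.333). Col15a1, the close relative of Col18a1, read 1.26 and 3.43 in DKO, 2.51, 3.20 and 2.84 in Ets2KO, 2.61, 0.41 and 1.43 in Ets1KO, and 1.54, 1.15 and 1.49 in WT. Its Ets2KO minus WT difference was 1.46 (adjusted p = 0.224).

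Pericyte and adipocyte markers reached their highest array means in Ets2KO as well. The 3 measured pericyte markers of 5 averaged -1.39 to -1.27 in DKO, -0.75 to 2.16 in Ets2KO, -2.04 to 0.15 in Ets1KO and -2.24 to -1.36 in WT, and the 4 measured adipocyte markers of 7 averaged -2.55 to -0.65 in DKO, -0.01 to 2.06 in Ets2KO, -3.61 to -2.88 in Ets1KO and -2.30 to 0.99 in WT. The pericyte mean rests on 4 Rgs5 probe sets of 7, while Notch3 read -0.32 and 0.04 in DKO and -1.37, -1.85 and 0.85 in Ets2KO, and Cspg4 overlapped between all groups. Their part in the Col18a1 and Col15a1 levels was not tested.

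Among the 10 other collagens (13 probe sets), 0 were called higher and 1 lower in DKO against WT (7.69%, where 36% of all probe sets were called), 1 higher and 2 lower against Ets1KO (23.1%, against 35.4%), and 2 higher and 1 lower against Ets2KO (23.1%, against 35.2%). As deposited 0 were higher in each, with 4 lower than WT, 4 lower than Ets1KO and 2 lower than Ets2KO (46%, 46% and 45.7% of all were lower). Col7a1, of the anchoring fibrils of skin, was the gene lower against all 3. It had relative levels of -2.00 and -1.63 in DKO, -1.28, -1.21 and -1.06 in Ets2KO, -0.96, -0.99 and -1.39 in Ets1KO, and -0.75, -0.52 and -1.13 in WT, below the array median throughout. The difference was -1.02 from WT (SE 0.22, adjusted p = 0.00707), -0.70 from Ets1KO (adjusted p = 0.0341) and -0.63 from Ets2KO (adjusted p = 0.0499). As deposited they were -1.81, -1.54 and -1.41, all called. Without DKO replicate 1 the difference from WT was -0.83 (adjusted p = 0.0505). The call against Ets1KO was kept in 7 and that against Ets2KO in 3 of 11 fits that left out an array.

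Col8a1, a short-chain collagen of vessel walls, gave opposite results at different probe sets. At 1455627_at it read 2.82 and 2.24 in DKO, 0.20, 0.42 and 0.04 in Ets2KO, 1.43, 1.33 and 1.60 in Ets1KO, and -0.16, 2.63 and 0.67 in WT, and at 1418441_at it read -1.02 and -2.58 in DKO, -0.73, -0.58 and -1.37 in Ets2KO, 0.53, 0.32 and 0.83 in Ets1KO, and -0.90, 1.84 and -0.18 in WT. The WT arrays spread over more than the groups differ. Against Ets2KO the first was higher by 2.31 (SE 0.64, adjusted p = 0.0212) and the third probe set by 2.18 (adjusted p = 0.0255), neither called as deposited (adjusted p = 0.0779 and 0.0989). These differences shrank to 0.50 and 0.53 with sex as a covariate (adjusted p = 0.752 and 0.748). Against Ets1KO the probe set 1418441_at was lower by 2.36 (SE 0.73, adjusted p = 0.0325), while the others differed by 0.94 and 1.08 with no call. Each of these Col8a1 calls was lost without DKO replicate 2.

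Col16a1, a fibril-associated collagen, read 1.82 and 1.90 in DKO, 1.43, 2.70 and 1.92 in Ets2KO, 0.77, 0.49 and 0.62 in Ets1KO, and 2.16, 1.37 and 1.22 in WT. Ets1KO lay below all other arrays, by 0.96 against WT (SE 0.33, unadjusted p = 0.0171, no call), and DKO exceeded it by 1.23 (adjusted p = 0.0283; 0.39 as deposited, adjusted p = 0.395), a call lost without Ets1KO replicate 2 or 3 or without either DKO-labelled array. The type VI chains, which form beaded microfibrils around cells, were not called in any comparison relative to array medians: Col6a1 ranged from 3.81 to 4.04 in DKO, 3.71 to 5.06 in Ets2KO, 2.24 to 3.90 in Ets1KO and 3.53 to 4.15 in WT. Col6a3 went from 4.30 to 4.87 in DKO, 4.02 to 4.36 in Ets2KO, 1.80 to 4.01 in Ets1KO and 1.90 to 4.24 in WT. Col10a1, Col12a1, Col20a1 and Col25a1 averaged below the array median in every group and were not called either.

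Laminin chains gave 1 higher and 1 lower call of 11 probe sets in DKO against WT and against Ets1KO alike (18.2%, against 36% and 35.4% of all probe sets). Against Ets2KO they gave 1 higher and 2 lower (27.3%, against 35.2%). Lamc1, the gamma chain of most vascular laminins, was the higher one. Its probe set 1423886_at read 0.30 and 0.60 in DKO, -1.01, -0.86 and -1.33 in Ets2KO, -0.13, -0.93 and -0.87 in Ets1KO, and -0.23, -0.73 and -0.77 in WT. The DKO-labelled arrays were above all others, by 1.03 against WT (SE 0.28, adjusted p = 0.0194), 1.09 against Ets1KO (adjusted p = 0.0152) and 1.51 against Ets2KO (adjusted p = 0.00363). As deposited these were 0.23 and 0.25, without a call, and 0.74 (adjusted p = 0.0448). The call against WT was lost without WT replicate 2 or DKO replicate 2, and that against Ets1KO without Ets1KO replicate 2 or 3 or DKO replicate 2. With sex as a covariate the difference from Ets2KO was 2.03 and was still called. The brighter Lamc1 probe set, 1423885_at, read 1.33 and 2.43 in DKO and 2.39, 1.94 and 1.61 in WT, and did not differ beyond that spread (-0.10).

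Lamb1, a beta chain of vascular laminins, fell at 1 of its 3 probe sets. At 1451241_at it read -0.69 and 0.71 in DKO, 1.95, 2.10 and 2.27 in Ets2KO, 2.09, 1.80 and 2.07 in Ets1KO, and 2.21, 1.94 and 1.56 in WT. DKO was lower by 1.90 than WT (SE 0.36, adjusted p = 0.00388), by 1.98 than Ets1KO and by 2.10 than Ets2KO, each called as deposited too and whichever array was left out. Without DKO replicate 1 the differences shrank to -1.20 from WT, -1.28 from Ets1KO and -1.40 from Ets2KO. With sex as a covariate the call against Ets2KO was lost (-1.64, adjusted p = 0.149). The brightest probe set, 1424114_s_at, read 3.54 and 4.42 in DKO, 3.13, 3.47 and 3.77 in Ets2KO, 3.41, 3.13 and 3.25 in Ets1KO, and 3.44, 3.18 and 3.09 in WT. It and the third were 0.74 and 0.94 higher in DKO than in WT (adjusted p = 0.0606 and 0.0744). The 3 probe sets thus shared no direction.

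Lamb2, the beta chain of synaptic and mature vascular laminins, was highest in Ets2KO, with relative levels of 0.18 and -0.19 in DKO, 0.47, 0.36 and 0.76 in Ets2KO, -0.18, -0.54 and -0.21 in Ets1KO, and -0.14, -0.16 and -0.17 in WT. Ets2KO exceeded WT by 0.69 (SE 0.16, adjusted p = 0.0784), short of the threshold, and DKO was lower than Ets2KO by 0.53 (SE 0.18, adjusted p = 0.0459), a call kept in 2 of 11 fits that left out an array. Against WT and Ets1KO the DKO difference turned from 0.15 and 0.30 to -0.64 and -0.54 as deposited. Lama4, the alpha chain of endothelial laminin-411, read 1.51 and 1.31 in DKO, 0.48, 1.81 and 2.93 in Ets2KO, 1.21, -1.03 and -1.24 in Ets1KO, and 2.65, 1.19 and 1.29 in WT at its brighter probe set. The low Ets1KO arrays were replicates 2 and 3, replicate 1 lay within WT, and the difference from WT was -2.06 (SE 0.77, adjusted p = 0.494) there and -1.63 at the second probe set. That second probe set read -1.84 and -3.26 in DKO. DKO differed from WT by -0.30 at the brighter and -1.86 at the second, and from Ets1KO by 1.76 and -0.23, with no call. Lama5, the alpha chain of laminin-511, ranged from 1.18 to 2.72 in DKO, 0.53 to 2.52 in Ets2KO, 2.05 to 2.71 in Ets1KO and 1.31 to 2.18 in WT, with no call at either probe set. Lama2, known from muscle and nerve, averaged -2.11 in DKO, -2.17 in Ets2KO, -2.63 in Ets1KO and -1.69 in WT, and was not called.

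**Figure D3:**
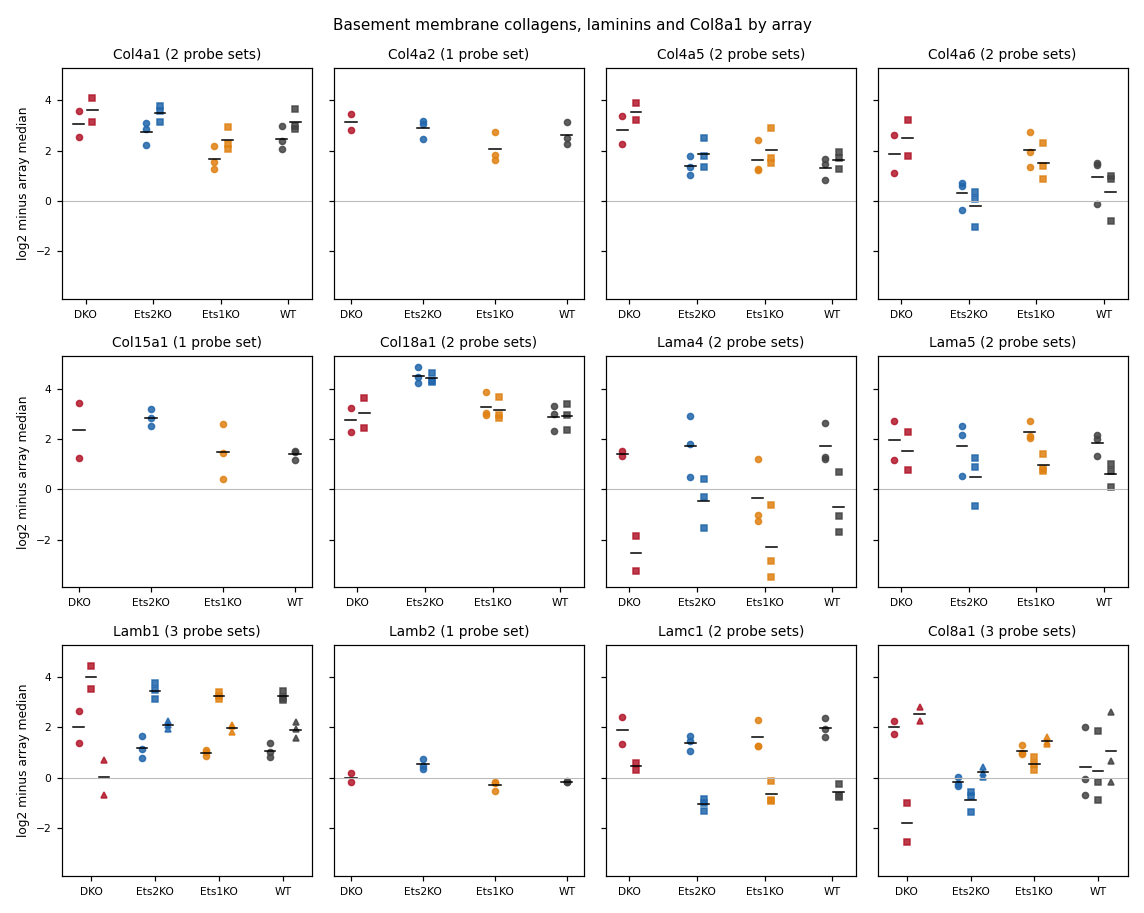
Log2 level minus array median (y axis) of basement membrane collagens, laminins and Col8a1 in DKO, Ets2KO, Ets1KO and WT (x axis); points are arrays, marker shapes probe sets and black bars group means. Col18a1 is highest in the 3 Ets2KO arrays, and the probe sets of Lamb1 and Col8a1 take opposite directions in DKO.

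Most integrin probe sets lay below WT in DKO. Of 28 probe sets 1 was called higher and 3 lower against WT (14.3%, against 36% of all probe sets). Against Ets1KO it was 1 higher and 4 lower (17.9%, against 35.4%), and against Ets2KO 2 higher and 4 lower (21.4%, against 35.2%). Against WT 21 of the 28 were below 0, where 8522 of all 20523 probe sets were. The integrin median was -0.38 where that of all probe sets was 0.16. As deposited 0 were higher and 11 lower than WT, where 2.87% of all were higher and 46% lower. In Ets2KO and in Ets1KO the integrin medians were 0.07 and 0.04, with no call.

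Itga5, which pairs with Itgb1 as the classical fibronectin receptor, fell at 1 of 4 probe sets. At 1423268_at it read -2.85 and -2.50 in DKO, 0.31, 0.65 and -1.08 in Ets2KO, -0.40, -0.17 and -0.28 in Ets1KO, and 0.06, -0.04 and -0.49 in WT. DKO was lower by 2.52 than WT (SE 0.43, adjusted p = 0.00254), by 2.39 than Ets1KO (adjusted p = 0.00332) and by 2.64 than Ets2KO (adjusted p = 0.00207). These calls held as deposited (differences of -3.31, -3.24 and -3.41) and in all 11 fits that left out an array. Against Ets2KO the difference lost its call with sex as a covariate (-2.32, adjusted p = 0.113). Its brightest probe set, 1423267_s_at, read 0.78 and 1.63 in DKO, 1.89, 1.89 and 0.00 in Ets2KO, 0.92, 0.84 and 0.91 in Ets1KO, and 1.51, 1.22 and 2.03 in WT, and differed from WT by -0.38 with no call. The probe set 1457561_at was 1.36 higher than WT (adjusted p = 0.118).

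Itga3, an alpha subunit that binds laminins, was also lowest in DKO. At 1460305_at it read -2.45 and -2.35 in DKO, 0.97, 0.17 and -0.88 in Ets2KO, 1.56, 0.82 and 0.86 in Ets1KO, and 0.20, 0.67 and -0.56 in WT. The difference was -2.50 from WT (SE 0.52, adjusted p = 0.00595), -3.48 from Ets1KO (adjusted p = 0.00137) and -2.49 from Ets2KO (adjusted p = 0.00635), each called as deposited and whichever array was left out. The call against Ets2KO was lost with sex as a covariate (-2.34, adjusted p = 0.17). A second Itga3 probe set was lower than Ets1KO by 1.73 (SE 0.49, adjusted p = 0.0231) and than WT by 1.20 (adjusted p = 0.0847). The brightest differed from WT by -0.37, so the 3 share their sign but not their size.

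Itgav, the alpha subunit of the vitronectin receptors, was higher in DKO at the brighter of 2 probe sets. At 1452784_at it read 4.47 and 4.74 in DKO, 3.36, 3.47 and 2.92 in Ets2KO, 3.23, 2.82 and 2.92 in Ets1KO, and 3.50, 3.28 and 2.67 in WT. Both DKO-labelled arrays stood above the 9 others. The rise was 1.46 against WT (SE 0.27, adjusted p = 0.00354), 1.61 against Ets1KO (adjusted p = 0.0023) and 1.35 against Ets2KO (adjusted p = 0.00508), and with sex as a covariate the last was 1.88 and was called. As deposited the differences were 0.66, 0.77 and 0.58, of which that from Ets1KO passed (adjusted p = 0.0341) and the others did not (adjusted p = 0.0594 and 0.0909). The dimmer probe set read -0.25 and -0.16 in DKO, 0.89, 0.79 and -0.53 in Ets2KO, 0.82, 0.22 and 0.38 in Ets1KO, and 1.22, 0.96 and 0.28 in WT. It lay 1.02 lower in DKO than in WT (adjusted p = 0.0935), opposite to the first.

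Itgb1, the common beta subunit of the matrix integrins, was lower in DKO at all 3 probe sets and called at the dimmest. That probe set, 1427771_x_at, read -1.34 and -1.04 in DKO, 0.22, 0.33 and -0.12 in Ets2KO, 0.15, 0.06 and -0.07 in Ets1KO, and 0.53, 0.45 and -0.96 in WT. The difference was -1.19 from WT (SE 0.39, adjusted p = 0.0413), kept in 2 of 11 fits that left out an array, -1.24 from Ets1KO (adjusted p = 0.0365) and -1.33 from Ets2KO (adjusted p = 0.0276), which was -0.55 with sex as a covariate (adjusted p = 0.623). The brightest, 1452545_a_at, read 2.52 and 2.58 in DKO, 3.79, 4.04 and 3.50 in Ets2KO, 3.74, 3.64 and 3.59 in Ets1KO, and 4.12, 4.13 and 2.52 in WT. WT replicate 3 lay with DKO, and the difference from WT was -1.04 (adjusted p = 0.0859; -1.83 as deposited, adjusted p = 0.00576).

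The remaining integrins in the endothelial set gave no call relative to array medians in any comparison. Itga6, a laminin receptor subunit, differed between the DKO-labelled arrays at both probe sets, with -2.20 and 1.50 at one and 0.31 and 3.51 at the other, against 0.23 to 1.56 and 1.15 to 2.63 in WT. Itgb3, the partner of Itgav in the vitronectin receptor, read -0.69 and 1.14 in DKO, 0.63 to 2.69 in Ets2KO, -1.19 to 0.31 in Ets1KO and -0.27 to 1.71 in WT at its brighter probe set. Itgb4, known from epithelial hemidesmosomes, read -2.28 and -1.63 in DKO, -1.13 to 0.25 in Ets2KO, -1.50 to -0.26 in Ets1KO and -1.88 to -0.83 in WT, and DKO minus Ets2KO was -1.41 (adjusted p = 0.053). The 4 probe sets of Itgb5, another partner of Itgav, were 0.14 to 1.55 higher in DKO than in WT, with adjusted p of 0.113 or more. Itga2, a collagen receptor subunit, stayed between -2.89 and -2.32 in all arrays.

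Outside that set Itga3, described above, and 2 more subunits were called in DKO against Ets2KO. Itga7, known as the laminin receptor of muscle, read -2.18 and -2.36 in DKO and -0.56, -0.29 and -0.66 in Ets2KO, a difference of -1.76 (adjusted p = 0.0499) kept in 3 of 11 fits, and with sex as a covariate it turned to 0.24 (adjusted p = 0.857). Itgb7, a leukocyte subunit, read -1.33 and -1.34 in DKO and -1.99, -2.64 and -2.35 in Ets2KO, a difference of 0.99 (adjusted p = 0.034; 0.22 as deposited, adjusted p = 0.598). Itga2b of platelets, Itga8 of mesenchymal cells and Itgb2 of leukocytes were not called, and the DKO-labelled arrays read 2.61 and -3.85 at the brighter Itga8 probe set.

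**Figure D4:**
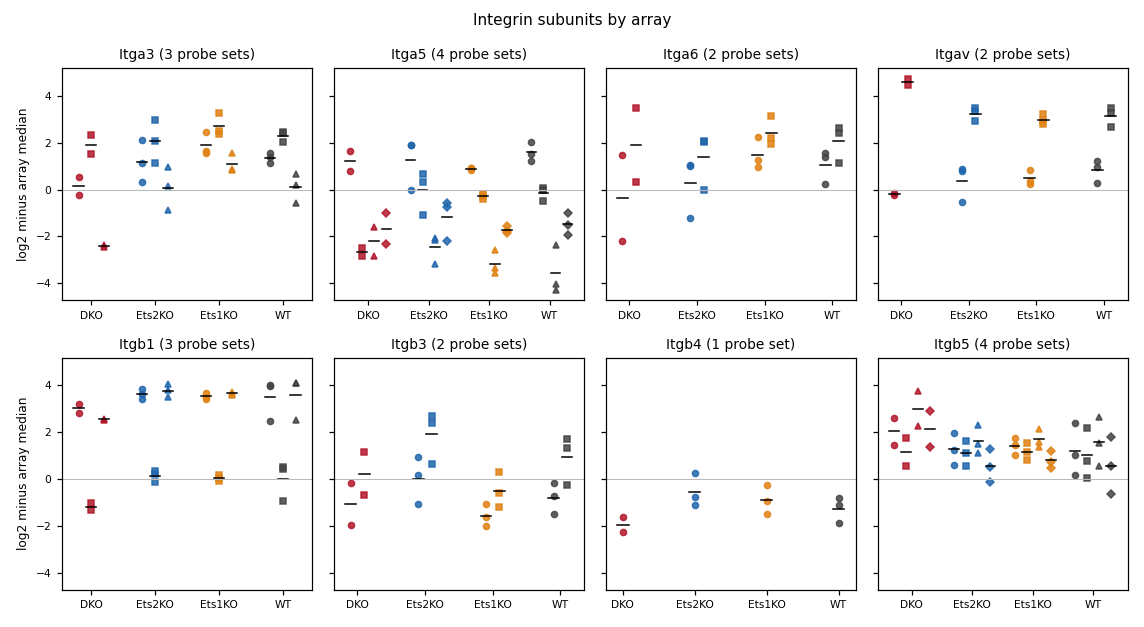
Log2 level minus array median (y axis) of 8 integrin subunits in DKO, Ets2KO, Ets1KO and WT (x axis); points are arrays, marker shapes probe sets and black bars group means. Of the Itga5, Itga3 and Itgb1 probe sets 1 each is called lower in DKO than in WT, and Itgav lies 1.46 above WT at its brighter probe set.

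Probe sets of 1 gene agreed less often in DKO than in the single losses, among members as among all genes. In Ets1KO against WT all probe sets of a gene had the same sign in 22 of the 25 members with several (88%, against 70.8% of 4785 genes with several), and in Ets2KO in 21 (84%, against 70.1%). In DKO against WT they did in 17 (68%, against 50.1%). Probe sets of 1 member lay more than 1 apart on the log2 scale in 12 of 25 in DKO (48%, against 45.3% of all such genes). In Ets2KO and Ets1KO they did in 2 each (8%, against 6.48% and 2.19%). In 3 members (12%, against 3.36% of all such genes) probe sets lay beyond 1 in both directions in DKO against WT. These were Itga5, Col8a1 and Itgav, with spans of 3.88, 3.62 and 2.48. Where along the transcripts the probe sets lie was not analysed here.

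**Figure D5:**
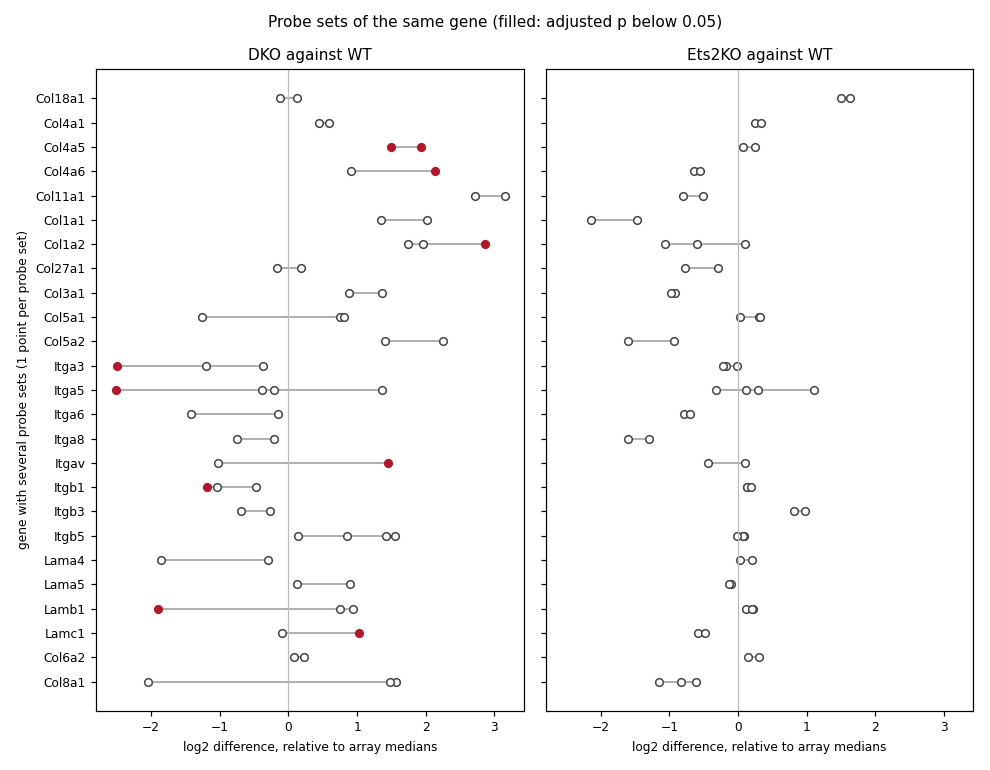
Log2 difference from WT relative to array medians (x axis) of every probe set of the 25 members with several (y axis, 1 point per probe set, filled where adjusted p is below 0.05), in DKO (left) and Ets2KO (right). Points of 1 gene lie more than 1 apart in 12 genes in DKO and in 2 in Ets2KO (48% and 8%, against 45.3% and 6.48% of all genes with several).

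Whether Ets2 loss with Cre acted differently in cells labelled as lacking Ets1 was asked with the interaction, the DKO minus Ets1KO difference less the Ets2KO minus WT difference. WT has no floxed Ets2 alleles, so the Ets2KO minus WT difference also holds these alleles, and male-like arrays are more frequent in Ets2KO than in WT. The interaction cannot tell these apart from Ets2 loss. It was called for 4 member probe sets above 0 and 4 below (10%), where 19.7% of all probe sets were called (10.3% above and 9.36% below). As deposited it was 1 above and 15 below, against 1.44% and 34% of all (35.5% together), and it was called for 5 of 80 on both scales in the same direction. Values are given in the closing section for Itga3, Itga5, Lamb1, Col18a1, Col5a3, Itgav, Lamc1 and Col1a1. Those of Itga3 and Lamb1 kept their call whichever array was left out. Without DKO replicate 1 the count was 5.

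Genes that process or share the matrix were measured beside the members. Of 28 probe sets of collagen-processing enzymes (18 of 22 listed genes) 8 were higher and 4 lower in DKO than in WT, where 36% of all probe sets were called, and 1 was lower in Ets2KO. As deposited 3 were higher and 11 lower in DKO, where 2.87% of all probe sets were higher and 46% lower. P4ha2, a prolyl hydroxylase that stabilises the collagen helix, was higher by 3.41 in DKO (SE 0.25, adjusted p = 4.955e-05; 2.61 as deposited, adjusted p = 5.972e-05) and lower in Ets2KO by 1.73 (SE 0.22, adjusted p = 0.0267). Plod2, a lysyl hydroxylase, was higher in DKO than in WT by 1.73 and 2.31 at 2 probe sets. As deposited these were 0.94 and 1.51, of which only the second was called. The cross-linker Lox was higher by 4.06 and 3.47 (adjusted p = 0.0379 and 0.0469), neither Lox value called as deposited. P4ha1, the isoform of P4ha2, was called both ways, at -1.89 and 1.78, and Bmp1, which cleaves procollagen, was lower by 3.56 (adjusted p = 0.00156).

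Other matrix ligands (23 probe sets, 11 of 13 genes) gave 3 higher and 2 lower calls in DKO against WT, and 1 higher and 4 lower as deposited. Of all probe sets 21.6% were called higher and 14.4% lower (36% together), and as deposited 2.87% and 46% (48.8% together). Fibronectin, Fn1, the ligand of Itga5, was higher at 2 probe sets by 0.81 and 2.75 (adjusted p = 0.00363 and 0.00649), of which the second was called as deposited. The heparan sulphate proteoglycan Hspg2 was lower by 0.89. Integrin adaptors (30 probe sets, 16 of 20 genes) gave 5 higher and 6 lower, against 21.6% and 14.4% of all. As deposited it was 0 higher and 15 lower, against 2.87% and 46%. Vcl, which ties integrins to actin, was called both ways, at 0.99 and -3.86, and the integrin-linked kinase Ilk was lower by 1.45 (adjusted p = 0.00412). Other matrix receptors (24 probe sets, 8 of 9 genes) gave 7 higher and 4 lower, against 21.6% and 14.4% of all. As deposited it was 1 higher and 12 lower, against 2.87% and 46%. The syndecan Sdc1 was lower by 3.64 (adjusted p = 0.000596). Ddr1 and Cd44 were each called both ways, Ddr1 at -2.36, 1.23 and 1.82 and Cd44 at -1.33, 0.80 and 0.96. Dystroglycan, Dag1, was higher by 0.77 and 1.01 relative to array medians but -0.02 and 0.22 as deposited, neither called. In Ets1KO none of these 4 lists had a call, and in Ets2KO P4ha2 was the single one.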

How the data were processed

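RNA of 12 columns in 4 groups was hybridised to Affymetrix mouse arrays. The deposited values are log2 intensities per probe set, and the submitters' processing notes name RMA, with no version, settings or role given in the sources used here. No depth applies to arrays, and the number of arrays limits the precision. Of 20523 probe sets 18824 carry 1 symbol in the platform annotation, 549 several and 1150 none listed.

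Each array's median was subtracted, and 1 linear model per probe set, with 4 group means, was fitted to all 20523 using limma 3.58.1 under R 4.3.3 (7 residual and 2.22 prior degrees of freedom after eBayes), with Benjamini-Hochberg adjustment within each comparison and calls at adjusted p below 0.05. SE is limma's standard error. The same fit was run on the deposited values. Tested on simulated data of 20523 probe sets, the fit recovered 34% of log2 changes of 1 in the DKO contrast with WT. For Ets2KO it was 31% and for Ets1KO 33%, and of changes of 3 it recovered 87%, 92% and 88%. Few probe sets were changed in each simulation, where 36% of all were called in the real DKO contrast with WT. The changed ones were drawn from all probe sets, whose median SE in that contrast was 0.25, against 0.60 for members. These shares are therefore not the recovery for members. Plots used matplotlib 3.10.9 (Python 3.11.15).

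Named are, for each comparison, up to 8 called rises and 8 called falls among probe sets with groups that lie apart (no such demand is made of the interaction), members called in both directions, and an endothelial set of 19 genes, of which 18 are measured. Other members are named to account for each family. Members, lists and scalings were chosen with earlier results of these data known, and no list is tested as a set. Replicate numbers were not treated as pairs: 15 same-numbered pairs had correlations of -0.31 to 0.1, none over 0.1. These correlate deviations from group means, which mirror each other in the DKO-labelled arrays, so they cannot exclude a pairing. Alternatives were the deposited scale, quantile normalization, brighter probe sets alone, 1 probe set per gene, the third DKO column, the compared groups alone, sex, a replicate block and each array left out.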

Additional observations from a re-analysis of the deposited data

Results flagged for a closer look

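For 8 of 80 member probe sets (10%, where 19.7% of all probe sets were called) the interaction in limma passed (DKO minus Ets1KO, less Ets2KO minus WT, relative to array medians). It compares groups by their labels, and relative to array medians the DKO-labelled arrays had the highest mean at 3 of 4 Ets1 and both Ets2 probe sets (as deposited at 1 and 0). Cre cannot be told apart from Ets2 loss, nor can the floxed Ets2 alleles, which Ets2KO has and WT lacks. Itga3 (1460305_at) had -3.46 (SE 0.70, adjusted p = 0.01), with -3.48 between DKO and Ets1KO and -0.02 between Ets2KO and WT. Itga5 (1423268_at) had -2.52 (adjusted p = 0.0175), with -2.39 and 0.12 for the same differences, and lost its call without DKO replicate 1. Lamb1 (1451241_at) had -2.18 (adjusted p = 0.0147), with -1.98 and 0.20, and was -1.48 without DKO replicate 1. Col18a1 (1418237_s_at) had -2.16 (adjusted p = 0.0234), with -0.53 and 1.63, and lost its call without DKO replicate 1. These 4 were called as deposited as well, at -4.29, -3.34, -3.00 and -2.98. With sex as a covariate none of the 4 was called in limma (adjusted p = 0.0536, 0.088, 0.0843 and 0.101).

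Above 0 were Col1a1 (1423669_at) at 3.24 (SE 0.80, adjusted p = 0.0232), with 1.10 between DKO and Ets1KO and -2.14 between Ets2KO and WT, and Col5a3 at 1.30 (adjusted p = 0.0301), with 0.15 and -1.15. Of 11 fits that left out an array the Col5a3 call was lost in 6 and that of Col1a1 in 3. Itgav (1452784_at) had 1.51 (adjusted p = 0.0201), with 1.61 and 0.10, and Lamc1 (1423886_at) had 1.58 (adjusted p = 0.0197), with 1.09 and -0.49, and their calls were lost in 2 and 1 of those fits. As deposited Col1a1 was called at 2.42 (adjusted p = 0.0446), and Col5a3 (0.47), Itgav (0.69) and Lamc1 (0.76) were not. Other probe sets of Itga5, Itga3, Lamb1, Itgav, Lamc1, Col1a1 and Col18a1 were not called in the interaction. The second Col1a1 and Col18a1 probe sets gave 3.27 and -1.62. With sex as a covariate 2 of the 80 member probe sets were called in it, those of Itgav and Lamc1, which were not called as deposited.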

How the results depend on the processing

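Each setting gives member probe sets called higher and lower, or their sum, and the cause of a moved count was not tested unless stated. Ets1KO against WT stayed at 0 under every alternative. Ets2KO against WT stayed at 0 except with the third DKO column, which adds an array with no spread of its own: 5 (3 higher, 2 lower), and then 24 in DKO against WT, 24 against Ets1KO, 32 against Ets2KO and 13 in the interaction. As deposited the counts were 21, 21, 26 and 16 in that order, and with quantile normalization 10, 10, 24 and 8. With brighter probe sets alone, which leaves 50 of 80, they were 6, 7, 16 and 4, and with 1 probe set per gene, which leaves 45, they were 3, 5, 10 and 4. With the compared groups alone DKO gave 6 against WT, 18 against Ets1KO and 22 against Ets2KO. With sex as a covariate they were 11, 14, 2 and 2. With a replicate block, whose numbers are not known to pair the samples, they were 11, 11, 21 and 7, and 0 in both single losses.

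Leaving out 1 array gave 0 in both single losses, 9 to 18 in DKO against WT, 5 to 19 against Ets1KO, 12 to 28 against Ets2KO and 5 to 12 in the interaction. In named probe sets 4 of 11 calls against WT, 4 of 13 against Ets1KO, 6 of 21 against Ets2KO and 2 of 8 in the interaction were kept whichever array was left out. Lamb2 changed sign as deposited, to -0.64 against WT (adjusted p = 0.017) and -0.54 against Ets1KO (adjusted p = 0.0361). With 2 arrays labelled DKO, a fit without one of them rests on the other alone, so a call kept there is weak evidence. For the same reason a miss does not show that a member was unchanged. The 34% of simulated log2 changes of 1 recovered against WT is a share over all probe sets with few changed. It is not the share for members, which vary more.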
